A study of Danio rerio with 24 samples.

Results

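These data describe the response of the larval liver to a high-cholesterol diet (HCD) in zebrafish (Danio rerio) that overexpress microRNA-21 in hepatocytes (miR-21OE). The comparison takes the raw counts of the 3 miR-21OE-HCD libraries against those of the 3 miR-21OE-NCD libraries, paired by batch, where NCD is the normal control diet. These are 6 of the 24 bulk RNA-seq libraries of the study, and a gene was a member if it had at least 10 counts in total over the 6 libraries, which held for 20012 of 32520 genes. Both groups carried the transgene labelled Tg(fabp10a-miR21OE), from a line outcrossed to AB, in which the hepatocyte promoter fabp10a drives the precursor dre-mir-21-1 together with the fluorescent protein Dendra2, with cryaa:mCherry as a lens marker. Larvae with Dendra2 alone were not analysed here, so effects of dre-mir-21-1 and of the rest of the transgene cannot be told apart. Larvae of both groups were fed from 6 days post fertilization (dpf) and dissected at 13 dpf, with 13 livers pooled in each library. NCD was the commercial food GEMMA Micro 75, and HCD was the same food with 10% cholesterol by weight. Non-transgenic wild-type siblings (WT) on the same diets served as the genotype comparison, with 3 WT-NCD and 3 WT-HCD libraries in the same batches. The batches are those of the labels (1/12-25, 11/21_C and 11/21_D), numbered 7, 8 and 9 here. Batches 1 to 6 held WT libraries only.

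Cells keep cholesterol within limits by a feedback loop in the endoplasmic reticulum. When sterols are scarce, Srebp2, encoded by srebf2, is released and switches on the enzymes of the mevalonate and sterol pathway and the low-density lipoprotein (LDL) receptor. When sterols are plentiful, Srebp2 is held back, and oxidized sterols activate the liver X receptor (LXR), which switches on exporters of sterols such as Abca1, Abcg1 and the Abcg5/Abcg8 pair. The liver also disposes of cholesterol as bile acids. miR-21 is a microRNA that represses the transcripts it pairs with and is abundant in injured and malignant liver.

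Total counts of the 6 libraries ranged from 22380251 to 29430743, with 20636 to 21469 genes detected in each. Levels are given as CPM (counts per 1000000 reads) with scaling factors over the 12 libraries of batches 7 to 9, always in the order of batches 7, 8 and 9. Log2 fold changes (L2FC) are HCD against NCD and carry a standard error (SE). p-values and padj (Benjamini-Hochberg over all genes tested, threshold 0.05) come from edgeR's quasi-likelihood test, two-sided, with the batch as a term, unless DESeq2 is named. The labelled tissue was borne out by hepatocyte markers, whose 12 transcripts summed to between 52816 and 75845 CPM in the 6 libraries. The WT libraries of the same batches held 58425 to 84174.5 CPM, except for the WT-HCD library of batch 7 with 32463 CPM. In miR-21OE livers fabp10a itself, the hepatocyte fatty acid binding protein, stood at 9721, 10693 and 9435 CPM on NCD and 9612, 8997 and 11342 CPM on HCD. Reads of dre-mir-21-1, the transgene's microRNA precursor, were at 5.15, 5.19 and 9.50 CPM on NCD and 5.81, 4.63 and 6.17 CPM on HCD in miR-21OE livers. In WT livers they were at 2.04, 1.23 and 0.450 CPM and 4.64, 1.38 and 1.52 CPM, below the miR-21OE library of the same batch and diet in each case. cryaa, the lens crystallin whose promoter marks the transgene, was at 0.213 to 1.1 CPM in the miR-21OE and 0 to 0.0375 CPM in the WT libraries. In a principal component analysis of the 6 libraries, the leading component (51.6% of the variance) separated batches (R2 of 95.5%) and not diets (R2 of 1.3%).

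One miR-21OE library stood apart. Markers of the exocrine pancreas summed to 49365 CPM in the miR-21OE-NCD library of batch 9, against 790 to 4066 CPM in the other 2 miR-21OE-NCD libraries and 551 to 2558 CPM on HCD. Markers of the endocrine pancreas (80.9 CPM) and of the intestine (257 CPM) were also highest there, with 0.497 to 1.41 CPM and 15.5 to 36.2 CPM in the other miR-21OE-NCD libraries. The digestive enzyme prss1, a trypsin, was at 685, 131 and 9234 CPM on NCD and 443, 88.7 and 136 CPM on HCD. Of the 13 exocrine markers tested, 11 were lower on HCD in 3 of 3 batches (13.6% of all genes were), at a median L2FC of -3.17. Without batch 9 that median was -0.58. WT-NCD libraries of batches 8 and 9 also held high exocrine sums, 17914 and 8574 CPM. Their endocrine sums were high too, 53.3 and 48.7 CPM, against 0.234, 0.344 and 2.74 CPM in the WT-HCD libraries. The miR-21OE-NCD library of batch 9 also weighs on single genes, which are named below with their value without batch 9 where one could be fitted.

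**Figure D1:**
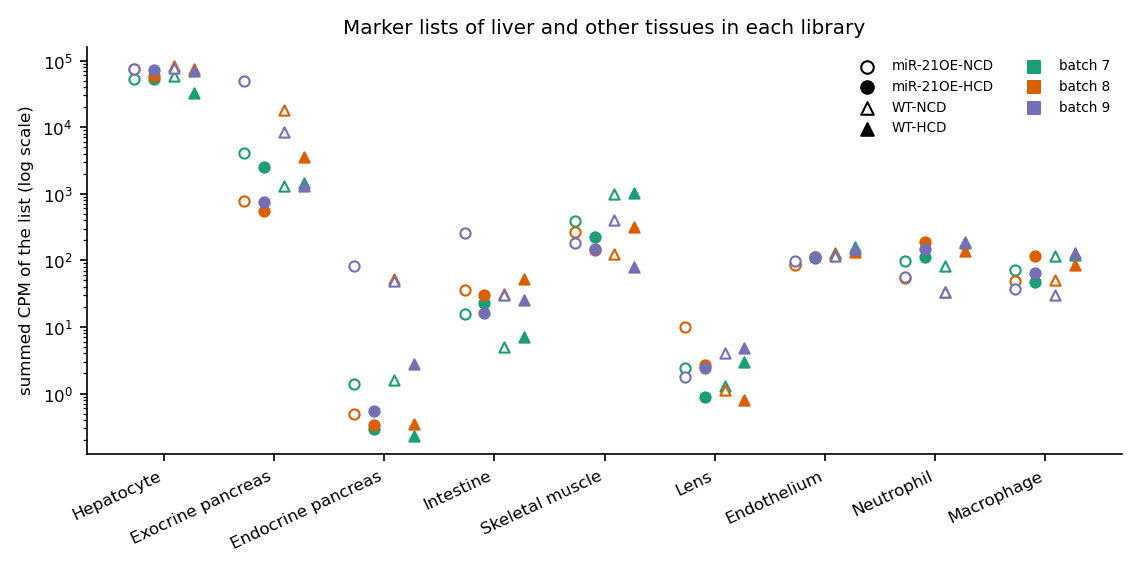
Summed CPM (log scale) of 9 marker lists in each of the 12 libraries of batches 7 to 9, with open symbols for NCD, filled symbols for HCD, circles for miR-21OE and triangles for WT. Hepatocyte sums run from 32463 CPM (WT-HCD of batch 7) to 84174.5 CPM (WT-NCD of batch 8). The exocrine pancreas sum of the miR-21OE-NCD library of batch 9 (49365 CPM) lies above all the other exocrine sums.

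In miR-21OE livers HCD lowered 2 genes below the threshold and raised none, a background of 0.00999% of the genes tested. The genes were hmgcra, the rate-limiting enzyme of the mevalonate pathway, and ASS1, argininosuccinate synthase, which joins citrulline and aspartate on the way to arginine. Without adjustment, p was under 0.05 for 897 genes (4.48% of the genes tested), of which 406 were higher (2.03%) and 491 lower (2.45%) on HCD. In WT livers of the same batches 13 genes were called (0.065%), 4 higher (0.02%) and 9 lower (0.045%), and the unadjusted count was 1341 (6.7%), 715 higher (3.57%) and 626 lower (3.13%). DESeq2 with the same batch term called 47 genes, 21 higher (0.105%) and 26 lower (0.13%), both genes among them. Its lower calls also held Metazoa_SRP (ENSDARG00000117197) and crybb1l1, each lower in only 1 of 3 batches. Their DESeq2 L2FCs were -22.0 and -20.2, on means of 23.5 and 3.17 counts. Each library was a pool of livers and each batch gave 1 library per group. With the batch as a term, the p-values rest on how far differences between groups varied from batch to batch. That spread was pooled over both genotypes.

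hmgcra (ENSDARG00000052734) was at 856, 5878 and 3487 CPM on NCD and at 24.2, 295 and 375 CPM on HCD. Every HCD library lay below every NCD library. hmgcra fell by 4.29 on the log2 scale (SE 0.35, padj = 0.00144), which is 19.6-fold. In WT livers of the same batches its levels were 558, 5716 and 6088 CPM and 15.1, 154 and 201 CPM, an L2FC of -5.11 (padj = 0.000316). The difference between the genotypes, 0.81 (SE 0.43), did not pass the edgeR test (unadjusted p = 0.0869). In bulk livers, fewer cells that make a transcript and less of it per cell cannot be told apart.

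ASS1 (ENSDARG00000103044) was a gene of low level, at 5.29, 5.08 and 2.44 CPM on NCD (120, 143 and 54 counts) and 0.147, 0.366 and 0.231 CPM on HCD (4, 12 and 6 counts). The 3 libraries of each diet again did not overlap. ASS1 fell by 4.02 on the log2 scale (SE 0.41, padj = 0.00659) in miR-21OE livers and had an L2FC of -4.07 in WT livers (padj = 0.00189). Of the 10 genes tested in a list of arginine and urea metabolism it was the only one past the threshold. Its partner asl, argininosuccinate lyase, had an L2FC of 0.32 (SE 0.42), and the nitric oxide synthase nos1 one of -0.71 (SE 0.27, unadjusted p = 0.0213).

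In edgeR both calls were lost without the batch term or without batch 8, while the L2FCs stayed of like size. Fitted on the 6 miR-21OE libraries alone, edgeR called 11 genes, with hmgcra among them (padj = 0.0373) but not ASS1. edgeR without the batch term called 0 genes (595 at an unadjusted p under 0.05), with an hmgcra L2FC of -3.88 and an adjusted p of 1.00. DESeq2 without that term called 25 genes, hmgcra among them (L2FC -3.89, adjusted p = 0.0197). Leaving out batch 8 gave 0 calls, leaving out batch 9 gave hmgcra alone, and leaving out the miR-21OE-HCD library of batch 8 gave hmgcra alone, with ASS1 at an edgeR adjusted p of 0.0823. Without batch 8 the L2FC was -4.28 for hmgcra and -4.22 for ASS1, and over the alternatives with whole batches left out or other settings it ranged from -4.74 to -3.80 and from -4.29 to -3.59.

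The enzymes of sterol synthesis were lower on HCD as a group. Of 22 tested list members, 1 passed the threshold, 17 were lower at an unadjusted p under 0.05 (2.45% of all genes were), and 15 were lower in 3 of 3 batches (13.6% of all genes were), with 0 higher on either count. In 6 members all HCD libraries lay below all NCD libraries (3.63% of all genes did). Their median L2FC was -3.86, beside -0.00214 over all genes tested and -4.99 for the same members in WT livers. DESeq2 called 4 of them, all lower (0.13% of all genes). In 21 of the 22 members the L2FC was smaller in size in miR-21OE than in WT livers, as it was in 54.3% of all genes. The members were measured in the same 3 batches and are not independent of each other. The median difference (miR-21OE minus WT) was 1.11. In edgeR 1 member (cyp51) reached an unadjusted interaction p under 0.05 (2.06% of all genes did).

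The early, mevalonate part of the pathway held hmgcs1, which makes HMG-CoA. It was at 6.78, 1757 and 299 CPM on NCD and 8.09, 27.6 and 12.1 CPM on HCD (L2FC -3.92, SE 1.5). Batch 7 went the other way from batches 8 and 9. fdps, farnesyl diphosphate synthase, was at 9.03, 707 and 191 CPM and 4.23, 9.24 and 12.6 CPM (L2FC -4.25, SE 1.28). The isomerase idi1 stood at 112, 684 and 383 CPM and 103, 48.9 and 55.0 CPM, and its HCD libraries all lay below the NCD libraries. Its raw counts in batch 7 were 2546 on NCD and 2809 on HCD, so the direction there depends on the scaling. mvda, mevalonate diphosphate decarboxylase, had an L2FC of -3.60 (SE 1.15).

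The later, sterol part starts with squalene. fdft1, squalene synthase, was at 10.5, 581 and 112 CPM on NCD and 5.15, 10.3 and 7.06 CPM on HCD. SQLE (ENSDARG00000079946), the squalene epoxidase, had the most negative L2FC of the list, -8.21 (SE 1.63, padj = 0.442). It was at 0.0441, 362 and 74.5 CPM on NCD and 0, 1.13 and 0.154 CPM on HCD, so that batch 7 held almost no SQLE reads on either diet. lss, lanosterol synthase, was at 2.55, 469 and 133 CPM and 0.221, 9.85 and 4.98 CPM (L2FC -4.93, SE 1.08).

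cyp51, lanosterol 14-alpha-demethylase, was at 34.6, 2280 and 845 CPM on NCD and 2.21, 38.2 and 37.7 CPM on HCD (L2FC -4.91, SE 0.75, padj = 0.14). Lower in each batch, its levels still overlapped between diets, since the NCD library of batch 7 lay under the HCD libraries of batches 8 and 9. msmo1, a sterol C4-methyl oxidase, was at 22.8, 741 and 328 CPM and 7.95, 7.84 and 11.8 CPM, without overlap. sc5d, hsd17b7 and nsdhl, further enzymes of the sterol part, had L2FCs of -3.80, -4.25 and -2.7. In batch 7 hsd17b7 had 8 counts on both diets, so its direction there came from the scaling.

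A few members were not lower in every batch. LBR, the lamin B receptor with sterol reductase activity, had an L2FC of -0.12 (SE 0.32). acat2, an acetyl-CoA acetyltransferase, and the sterol reductases DHCR7 and tm7sf2 were lower in batches 8 and 9 but not in batch 7, with L2FCs of -1.69, -1.48 and -1.87.

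Batches differed in sterol synthesis on the control diet. The 22 transcripts summed to 1183, 14980 and 6362 CPM in the miR-21OE-NCD libraries and to 275, 605 and 638 CPM in the miR-21OE-HCD libraries. The WT-NCD libraries gave 893, 12850 and 18916 CPM, so both genotypes of batch 7 were low on the control diet. The WT-HCD libraries gave 197, 403 and 475 CPM. The median log2 ratio of HCD to NCD over the list was -0.25 in batch 7, -4.66 in batch 8 and -3.64 in batch 9 of miR-21OE livers. In WT livers it was -0.89, -5.14 and -6.01, so the genotypes lay furthest apart in batch 9. Without batch 7 the list's median L2FC was -4.72, and 12 genes passed edgeR's threshold in the whole table, 5 higher and 7 lower, with cyp51, sc5d, msmo1, acss2l and SQLE joining hmgcra and ASS1 among the lower.

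**Figure D2:**
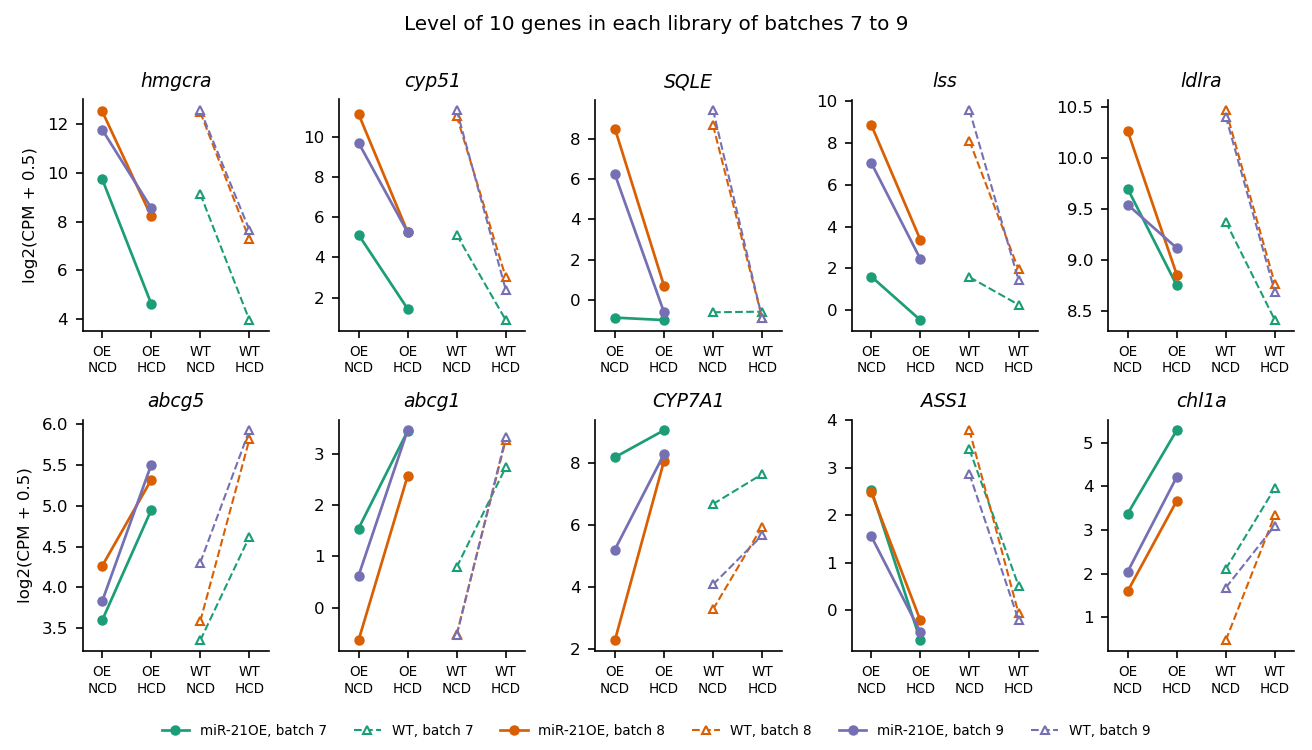
Levels, as log2(CPM + 0.5), of 10 genes in the 12 libraries of batches 7 to 9, with a line joining NCD to HCD within a batch (filled circles, miR-21OE; open triangles, WT; colours, batches). hmgcra falls from 856 to 24.2 CPM in batch 7 and from 5878 to 295 CPM in batch 8 of miR-21OE livers, while SQLE starts near 0 in batch 7.

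Genes of sterol sensing and lipoprotein uptake were mixed. Of 17 tested members, 0 passed the threshold, and 5 were lower and 3 higher in 3 of 3 batches (13.6% and 12.6% of all genes were). The median L2FC was 0.06. srebf2, which encodes Srebp2, was at 266, 715 and 245 CPM on NCD and 127, 154 and 109 CPM on HCD (L2FC -1.55, SE 0.46, unadjusted p = 0.00581). The LDL receptor gene ldlra was at 831, 1233 and 745 CPM and 430, 463 and 555 CPM (L2FC -0.94, SE 0.25). In both genes every HCD library lay below every NCD library. NPC1L1, which takes up free sterols, had an L2FC of -0.93 (SE 0.22) and was called by DESeq2.

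On the opposite side stood the ubiquitin ligase that degrades the LDL receptor. MYLIP (ENSDARG00000008859) was at 27.9, 7.21 and 14.6 CPM on NCD and 32.6, 37.5 and 41.6 CPM on HCD (L2FC 1.42, SE 0.45), and the diets did not overlap. Its second copy mylipb had an L2FC of 1.31 (SE 0.41). soat2, which esterifies cholesterol for storage, was at 341, 75 and 121 CPM and 322, 370 and 479 CPM. It was higher in batches 8 and 9 and slightly lower in batch 7. insig1, which retains Srebp in the endoplasmic reticulum, had an L2FC of -0.40 (SE 0.33).

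LXR and its export genes were higher on HCD in more members than lower. Of 11 tested, 0 passed the threshold, 6 were higher in 3 of 3 batches (12.6% of all genes were), 5 of them without overlap between diets (3.23% of all genes), and 1 was lower, the lipoprotein receptor SCARB1. The median L2FC was 0.76, beside 1.16 in WT livers. abcg5, which pairs with abcg8 in the transporter that moves sterols into bile, was at 11.6, 18.7 and 13.7 CPM on NCD and 30.4, 39.4 and 44.9 CPM on HCD (L2FC 1.37, SE 0.25, padj = 0.296). Its partner abcg8 was at 10.9, 23.5 and 15.6 CPM and 32.8, 29.9 and 37.4 CPM (L2FC 1.11, SE 0.33). For both genes, no HCD library fell within the NCD range.

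abcg1, which hands cholesterol to high-density lipoprotein, was at 2.42, 0.142 and 1.04 CPM on NCD and 10.4, 5.46 and 10.6 CPM on HCD (L2FC 3.15, SE 0.67). abca1b, a lipid exporter, was at 71.8, 28.7 and 54.9 CPM and 97.2, 225 and 152 CPM (L2FC 1.73, SE 0.63). Its more abundant copy abca1a was at 3144, 2015 and 1792 CPM and 2338, 3395 and 3801 CPM, with batch 7 lower on HCD. The receptor gene nr1h3 itself was at 90.5, 55.5 and 60.3 CPM and 101, 123 and 121 CPM (L2FC 0.76, SE 0.31). pltp, the phospholipid transfer protein, had an L2FC of 2.72 (SE 0.79). DESeq2 called abcg5 and abcg1.

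Bile acid genes did not move together. Of 15 tested, 3 were higher and 1 lower in 3 of 3 batches (12.6% and 13.6% of all genes were), at a median L2FC of -0.19. The member with the largest L2FC was CYP7A1, the rate-limiting enzyme of bile acid synthesis. It was at 292, 4.37 and 36.6 CPM on NCD and 534, 268 and 313 CPM on HCD (L2FC 3.0, SE 0.74, unadjusted p = 0.00187). The NCD libraries were spread more widely than the HCD libraries, and the NCD library of batch 7 lay within the HCD range.

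Among 21 genes of fatty acid synthesis, 8 were lower in 3 of 3 batches (13.6% of all genes were) and 1 was higher (12.6%). In edgeR 0 passed the threshold, while DESeq2 called 5, all lower (0.13% of all genes). acss2l, which activates acetate, was at 106, 696 and 265 CPM on NCD and 46.4, 25.0 and 14.6 CPM on HCD (L2FC -3.52, SE 0.80). aclya, the citrate lyase that supplies acetyl-CoA, was at 108, 677 and 308 CPM and 67.6, 67.6 and 125 CPM. mlxipl, the carbohydrate-responsive transcription factor ChREBP, was at 5.59, 11.5 and 10.5 CPM and 2.58, 5.03 and 5.17 CPM (L2FC -1.12, SE 0.21, padj = 0.34). idh1, a cytosolic source of NADPH, had an L2FC of -1.12 (SE 0.21).

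Fatty acid synthase and its regulator were not among them. FASN was at 519, 278 and 131 CPM on NCD and 422, 256 and 204 CPM on HCD (L2FC 0.07, SE 0.25), and SREBF1 had an L2FC of 0.29 (SE 0.31). SCD, the stearoyl-CoA desaturase, had an L2FC of 2.46 (SE 1.24) on levels of 0.925, 2.63 and 1.58 CPM and 7.36, 27.7 and 1.85 CPM.

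**Figure D3:**
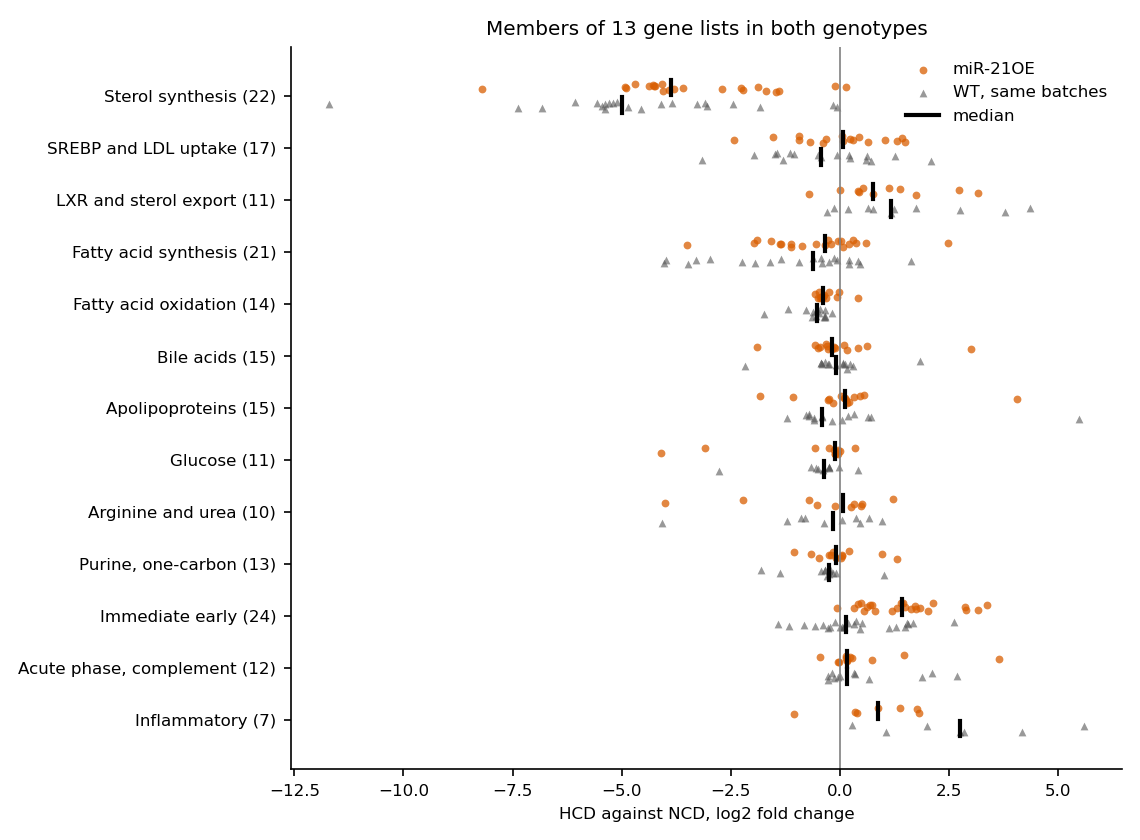
L2FC (HCD against NCD) of each member of 13 gene lists, with the number tested in brackets, in miR-21OE livers (orange circles) and WT livers of the same batches (grey triangles), and black bars for the medians. Sterol synthesis lies left of 0 in both genotypes (medians -3.86 and -4.99), and the immediate early genes lie right of 0 in miR-21OE livers (1.42 against 0.14).

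The synthesis of polyunsaturated fatty acids held fads2, the listed gene with the smallest p for a difference between the genotypes. No gene passed the edgeR interaction test at padj under 0.05. The unadjusted count was 413 (2.06%), with the miR-21OE value above the WT value in 185 (0.924%) and below it in 228 (1.14%), and DESeq2 called 7. fads2, a desaturase of this pathway, was at 898, 3020 and 2536 CPM on NCD and 444, 606 and 873 CPM on HCD in miR-21OE livers (L2FC -1.57, SE 0.32). In WT livers it was at 1224, 2770 and 2575 CPM and 60.3, 271 and 106 CPM (L2FC -4.04, padj = 0.00164). The NCD levels of the genotypes overlapped, and all miR-21OE-HCD libraries lay above all WT-HCD libraries. The interaction was 2.46 (SE 0.46, unadjusted p = 0.000199, padj = 1.00 in edgeR and 0.000712 in DESeq2).

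elovl2, the elongase that acts with it, was at 116, 1940 and 1118 CPM and 72.6, 505 and 424 CPM in miR-21OE livers and at 250, 1566 and 1950 CPM and 25.0, 297 and 108 CPM in WT livers. Its interaction was 1.94 (SE 0.45, unadjusted p = 0.00125). In each batch the HCD level was higher in the miR-21OE library than in the WT library. elovl5, a second elongase, had an interaction of 0.58 (SE 0.52).

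Immediate early genes are those that cells switch on within minutes of a growth factor or stress signal. Of 24 tested in miR-21OE livers, 0 passed the threshold, 16 were higher on HCD at an unadjusted p under 0.05 (2.03% of all genes were), 10 were higher in 3 of 3 batches (12.6% of all genes were) and 0 were lower on either count. The other 14 were neither higher nor lower in all batches, and in batch 7 there were 12 higher and 12 lower. The median L2FC was 1.42 in miR-21OE livers and 0.14 in WT livers, and 7 members had an unadjusted interaction p under 0.05 (2.06% of all genes did). DESeq2 called 5 of the 24 higher (0.105% of all genes). By batch, the median log2 ratio was 0.14, 1.80 and 1.34 in miR-21OE livers and 0.14, -0.32 and 0.67 in WT livers.

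dusp2, a phosphatase of MAP kinases, was at 14.2, 4.97 and 5.16 CPM on NCD and 33.5, 63.4 and 67.7 CPM on HCD (L2FC 2.89, SE 0.48, padj = 0.208). WT livers had 48.0, 45.9 and 19.1 CPM and 41.5, 36.8 and 45.2 CPM, so the miR-21OE-NCD libraries were the low ones. The dusp2 interaction was 2.7 (SE 0.63, unadjusted p = 0.00119). egr2a, an early growth response transcription factor, was at 10.6, 1.14 and 1.54 CPM and 17.2, 34.1 and 19.6 CPM in miR-21OE livers (L2FC 3.37, SE 0.67). In WT livers it was at 13.0, 3.79 and 1.39 CPM and 18.2, 2.95 and 2.54 CPM, and here the miR-21OE-HCD libraries of batches 8 and 9 were the high ones.

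The orphan nuclear receptor nr4a1 was at 3.48, 1.07 and 1.27 CPM on NCD and 8.57, 2.35 and 4.78 CPM on HCD (L2FC 1.5, SE 0.34). Its interaction was 1.5 (SE 0.48, unadjusted p = 0.00956 in edgeR). fosaa, a subunit of AP-1, was at 1.45, 0.213 and 0.317 CPM and 1.36, 16.4 and 2.04 CPM, with most of the difference in batch 8. Others had L2FCs of like size in both genotypes, with unadjusted edgeR interaction p-values over 0.05. junbb had L2FCs of 1.18 and 1.29 in miR-21OE and WT livers, ier2b of 1.3 and 1.11, and egr1 of 1.72 and 1.68. These encode a subunit of AP-1, a nuclear immediate early protein and an early growth response factor. Of them egr1 was slightly lower on HCD in batch 7 of miR-21OE livers (141 CPM on NCD, 131 CPM on HCD). The MAP kinase phosphatases dusp5 and DUSP6 had L2FCs of 2.13 (SE 0.58) and 0.54 (SE 0.22), and btg2, which slows proliferation, one of 1.44 (SE 0.47). Here too batch 7 was slightly lower on HCD for dusp5 (2.20 CPM on NCD, 2.02 CPM on HCD).

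The rule for named genes gave further genes outside these pathways. chl1a, a neural cell adhesion molecule, was at 9.87, 2.52 and 3.62 CPM on NCD and 38.5, 12.2 and 18.1 CPM on HCD (L2FC 2.16, SE 0.31, padj = 0.14). tmem59l, a transmembrane protein, was at 26.2, 2.7 and 4.75 CPM and 150, 43.8 and 34.7 CPM (L2FC 3.06, SE 0.46). Neither overlapped between diets, and both were higher in the WT livers too, at 2.29 and 1.98. relt, a receptor of the tumour necrosis factor family, had L2FCs of 1.57 in miR-21OE and 2.32 in WT livers (padj = 0.0136 in WT).

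kremen1, a receptor of the Wnt inhibitor Dickkopf, had an L2FC of 1.88 (SE 0.33), the potassium channel gene kcnh6b one of 3.44 (SE 0.71) and il1rapl1a, known from synapses, one of 1.58 (SE 0.35). c4b, complement component 4, was at 109, 62.3 and 69.7 CPM and 182, 299 and 160 CPM (L2FC 1.47, SE 0.31). mb, myoglobin, had an L2FC of 1.88 (SE 0.40) on 1.01, 3.27 and 1.36 CPM and 4.34, 9.82 and 5.71 CPM. For each of these 5 genes, the HCD libraries lay above the NCD libraries in miR-21OE livers and in WT livers of the same batches. Their L2FCs in WT livers were 1.66, 3.51, 1.24, 1.87 and 1.41, in the order named. In miR-21OE livers 3.23% of all genes were higher without overlap, and the choice by small p and direction there favours such genes. Skeletal muscle markers as a list did not accompany mb: in miR-21OE livers their sum was 182 to 393 CPM on NCD and 145 to 227 CPM on HCD.

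Of the lower genes named by the rule, rdh12, a retinol dehydrogenase, was at 25.9, 141 and 42.4 CPM on NCD and 11.3, 11.1 and 13.5 CPM on HCD (L2FC -2.34, SE 0.52). dao.2, a D-amino-acid oxidase, had an L2FC of -2.07 (SE 0.42), without overlap. An unnamed clone-based gene (ENSDARG00000092354) had L2FCs of -2.68 (SE 0.44) in miR-21OE and -0.87 in WT livers, with an edgeR interaction p of 0.0106 before adjustment. si:zfos-943e10.1 had an L2FC of -1.09 (SE 0.24). Both overlapped between diets, and batch 7 was the lowest on each.

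Of 8 neutrophil markers tested, 2 were higher in 3 of 3 batches in miR-21OE livers (12.6% of all genes were) and 7 in WT livers (13.8%). Their median L2FCs were 1.05 and 1.90. Their sum was 55.2 to 99.2 CPM on NCD and 112 to 186 CPM on HCD in miR-21OE livers, most of it from lect2l, a leukocyte chemotaxin. The other 7 markers summed to 5.51, 5.36 and 7.42 CPM on NCD and 10.4, 16.2 and 5.29 CPM on HCD, so that the diets overlapped and batch 9 was lower on HCD. The difference between the genotypes had an unadjusted edgeR interaction p under 0.05 in 1 of the 8, mpx. mpx, the neutrophil myeloperoxidase, was at 0.837, 0.462 and 0.498 CPM on NCD and 2.54, 1.92 and 0.424 CPM on HCD in miR-21OE livers. In WT livers it was at 0.769, 0.394 and 0.450 CPM and 5.41, 6.97 and 4.23 CPM (L2FC 3.38, padj = 0.0356), without overlap. Its interaction was -2.07 (SE 0.65, unadjusted p = 0.00884), and of the miR-21OE pairs the one of batch 9 was not higher on HCD.

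Of 7 inflammatory genes tested, 1 was higher in 3 of 3 batches in miR-21OE livers (12.6% of all genes were) and 6 in WT livers (13.8%). Their median L2FCs were 0.87 and 2.74, and 3 had an unadjusted edgeR interaction p under 0.05 (2.06% of all genes did). The list was of low level, summing to 2.17 to 6.28 CPM in the miR-21OE libraries. By batch, its median log2 ratio was -0.19, 1.07 and -0.15 in miR-21OE livers and 1.34, 0.75 and 0.66 in WT livers. irg1l, which makes the macrophage metabolite itaconate, was close to the limit of detection in miR-21OE livers, with 5, 0 and 12 counts on NCD and 2, 3 and 2 counts on HCD. WT-HCD livers had 36, 8 and 13 counts. lect2l was higher on HCD in both genotypes (L2FC 1.21, SE 0.35, and 1.83 in WT). cd74a, the invariant chain of antigen presentation, was at 5.2, 5.68 and 3.17 CPM and 1.80, 1.52 and 1.93 CPM (L2FC -1.38, SE 0.45), lower without overlap. Macrophage markers summed to 37.5 to 72.6 CPM on NCD and 47.2 to 115 CPM on HCD, so the ranges overlapped.

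**Figure D4:**
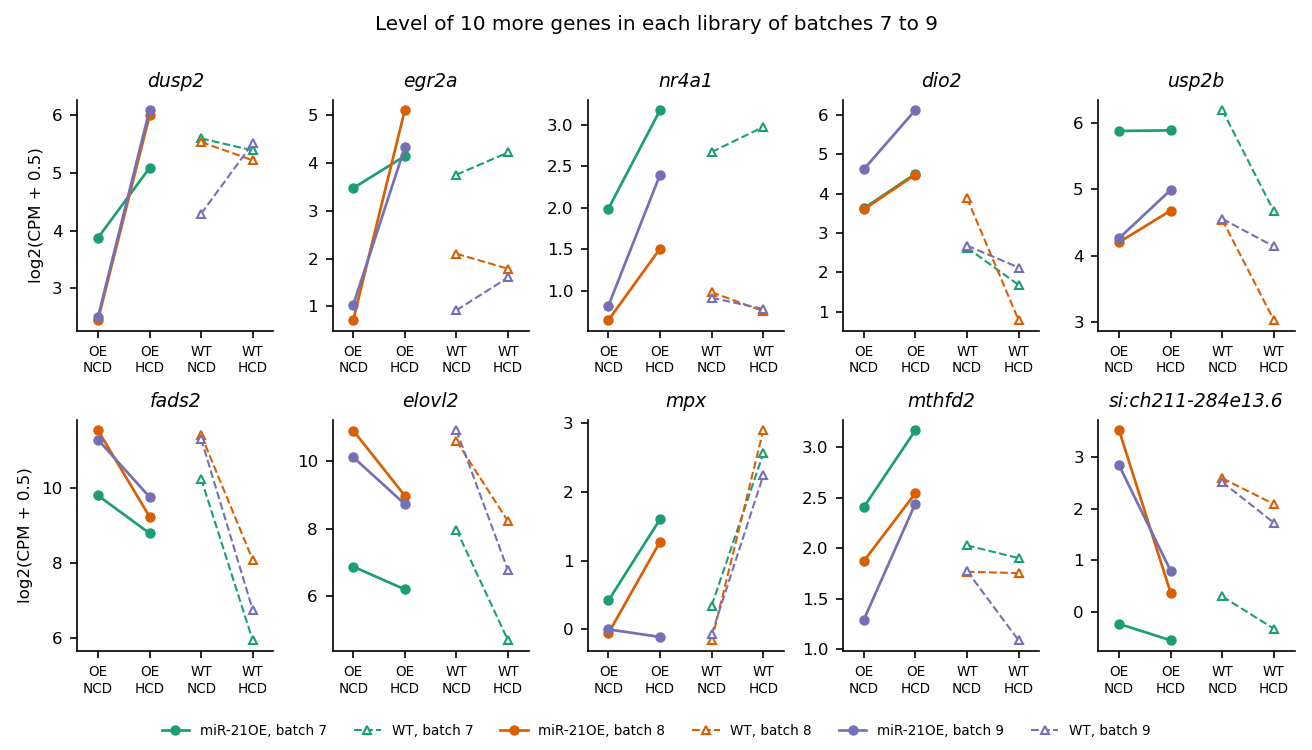
Levels, as log2(CPM + 0.5), of 10 more genes in the 12 libraries, with a line joining NCD to HCD within a batch (filled circles, miR-21OE; open triangles, WT; colours, batches). The fads2 lines of WT livers end at 60.3 to 271 CPM, below the 444 to 873 CPM of miR-21OE-HCD livers, and dusp2 starts lower in miR-21OE-NCD livers (4.97 to 14.2 CPM) than in WT-NCD livers (19.1 to 48.0 CPM).

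A list of diet genes was also taken from WT livers of batches 1 to 6, which share no library with the miR-21OE comparison. There edgeR called 793 of 23420 genes, 457 higher (1.95%) and 336 lower (1.43%). With library totals in place of TMM scaling the split was 1593 higher and 184 lower. In miR-21OE livers 435 of the higher genes were tested. Of these, 350 (80.5%) had a positive L2FC, beside 49.8% of all genes. In 3 of 3 batches 130 were higher (29.9%, beside 12.6% of all genes) and 12 lower (2.76%, beside 13.6%). The median L2FC was 0.31 in miR-21OE livers and 0.74 in WT livers of batches 7 to 9, against 1.23 in the WT livers that defined the list.

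Of the 335 lower genes tested, 271 (80.9%) had a negative L2FC in miR-21OE livers. In 3 of 3 batches 128 were lower (38.2%, beside 13.6% of all genes) and 9 higher (2.69%, beside 12.6%). The medians were -0.32 in miR-21OE livers and -0.62 in WT livers of the same batches, against -1.11 in the WT livers of batches 1 to 6. The L2FC was smaller in size in miR-21OE livers than in WT livers of the same batches for 359 of the higher (82.5%) and 266 of the lower genes (79.4%), beside 54.3% of all genes. An unadjusted interaction p under 0.05 was found in 27 of each (6.21% and 8.06%), beside 2.06% of all genes. Both sets were chosen for a response in WT livers, which favours larger values in WT livers. The shares of all genes are thus not a like comparison, and no list defined in miR-21OE livers was set beside them. By batch, the median log2 ratio of the higher genes was 0.08, 0.55 and 0.07 in miR-21OE livers. In WT livers it was 0.89, 0.47 and 0.48, so in batch 8 the miR-21OE value was the higher. For the lower genes it was -0.34, -0.44 and -0.15 in miR-21OE livers and -0.90, -0.59 and -0.28 in WT livers. The WT-HCD library of batch 7 was the one with the low hepatocyte sum (32463 CPM).

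ERG28, tmem97 and tmem176l.2 were singled out from this list after their values were seen. ERG28, a scaffold of sterol enzymes, was at 5.11, 67.6 and 28.5 CPM on NCD and 3.97, 6.56 and 4.51 CPM on HCD (L2FC -2.22, SE 0.72). tmem97, a sterol-regulated protein of the endoplasmic reticulum, had an L2FC of -3.19 (SE 0.75). tmem176l.2 had an L2FC of 4.73 in WT livers of batches 1 to 6, 5.19 in WT livers of batches 7 to 9 and -0.21 (SE 1.29) in miR-21OE livers. There it was at 0.0881, 0.249 and 4.07 CPM on NCD and 0.331, 2.50 and 0.0772 CPM on HCD. It was higher on HCD in batches 7 and 8, as in WT livers, and lower in batch 9, whose NCD library also held the pancreas transcripts. Without batch 9 its L2FC in miR-21OE livers was 2.85.

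**Figure D5:**
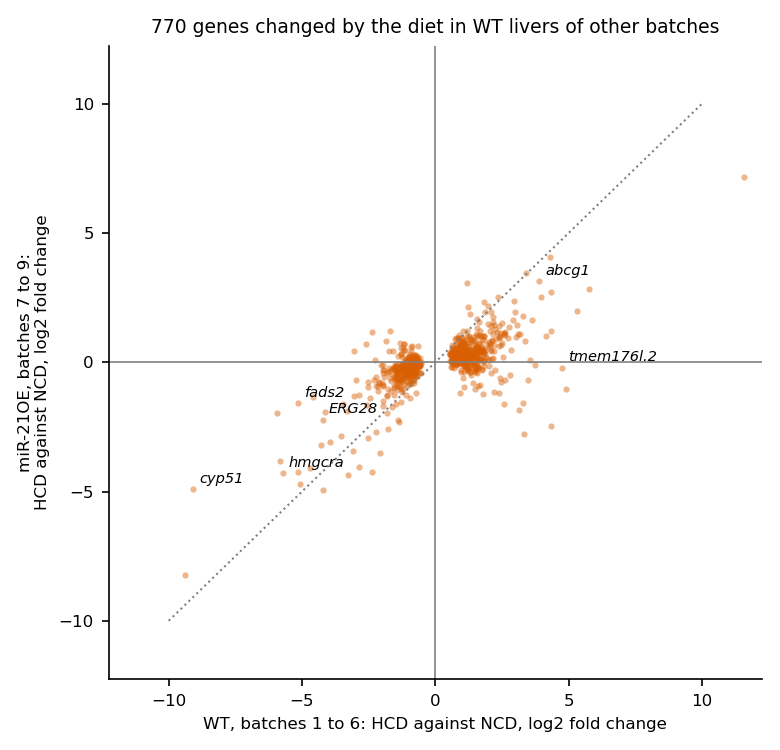
L2FC (HCD against NCD) of 770 genes called in WT livers of batches 1 to 6 (x axis) against the L2FC of the same genes in miR-21OE livers of batches 7 to 9 (y axis). Each point is a gene and the dotted line marks equal values. Of the genes right of 0, 350 of 435 lie above 0, and of those left of 0, 271 of 335 lie below it.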

How the data were processed

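Livers of 13 dpf larvae were profiled by directional, rRNA-depleted, paired-end RNA-seq. Raw counts by Ensembl gene ID were deposited by the authors as 1 table, without normalization or a filter. The submitters' processing notes name cutadapt 1.16, STAR 2.7.9a, featureCounts 1.6.3 and GRCz11. The strand setting is not given in the sources used here, so counts of overlapping or near-identical genes are uncertain. Libraries were grouped by their labels. No 2 replicates held the same values (lowest chi-square per degree of freedom, 48.2).

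Counts of the 12 libraries of batches 7 to 9 were fitted with edgeR 4.0.16 in R 4.3.3 (TMM, group means plus batch, quasi-likelihood F-test), which left 6 residual degrees of freedom. Contrasts were the diet in each genotype and their interaction. SEs were obtained from the L2FC and its F statistic. The 12 WT libraries of batches 1 to 6 were fitted separately. The labels give the batches. Deviations from group means correlated in all 18 same-batch pairs (lowest r = 0.19, mean 0.47). The mean between batches (-0.22) adds no evidence, since centring each group makes it negative when same-batch pairs correlate. Between batches, r was negative in every pair with batch 7 and positive in the others, up to 0.50. The correlations thus mainly set batch 7 apart, and the pairing within the other batches rests mainly on the labels. Alternatives were DESeq2 1.42.0, other scalings and filters, no batch term, and leaving out libraries and batches. Scripts were tested on simulated data.

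The text names genes past the threshold, the 12 higher and 12 lower genes with the smallest p among those with a mean of at least 50 counts and the same direction in 3 of 3 batches, the 3 higher and 3 lower by interaction p, and members of 25 gene lists (283 of 310 listed symbols matched). Genes named by interaction p also had to meet the count minimum and go one way in 3 of 3 miR-21OE batches. Members and lists were chosen with earlier results of these data known. Names are those of the study, else those of a gene table, many of them human symbols. A few list members are not reported here by name. No sequences or coordinates are used here.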

Additional observations from a re-analysis of the deposited data

Results flagged for a closer look

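In 4 of the genes named, the CPM of every miR-21OE pair went one way with HCD and that of every WT pair of the same batches the other way. The interaction was tested for each in edgeR and none passed (adjusted p = 1.00). dio2, usp2b and fthl29 were named partly for going one way in 3 of 3 miR-21OE batches, so that side was fixed by the choice. Over all genes, 12.6% were higher and 13.6% lower in 3 of 3 miR-21OE batches, and 13.8% and 13.1% in WT livers. The share of all genes with opposite directions was not counted. dio2, the deiodinase that activates thyroid hormone, was at 11.8, 11.6 and 24.1 CPM on NCD and 22.3, 22 and 69.6 CPM on HCD in miR-21OE livers and at 5.69, 14.3 and 5.92 CPM and 2.7, 1.22 and 3.86 CPM in WT livers. Its interaction was 3.03 on the log2 scale (unadjusted p = 0.000975, adjusted p = 0.0222 in DESeq2). usp2b, a ubiquitin protease, was at 58.4, 17.9 and 18.7 CPM and 58.8, 25.1 and 31.3 CPM in miR-21OE livers, with almost no difference in batch 7, and at 72.9, 22.8 and 23.0 CPM and 24.9, 7.65 and 17.1 CPM in WT livers (interaction 1.56, unadjusted p = 0.000873 in edgeR).

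mthfd2, a mitochondrial enzyme of folate metabolism, was at 4.80, 3.16 and 1.95 CPM and 8.50, 5.34 and 4.94 CPM in miR-21OE livers and at 3.58, 2.90 and 2.92 CPM and 3.24, 2.87 and 1.62 CPM in WT livers (interaction 1.3, unadjusted p = 0.00534 in edgeR). The WT differences of batches 7 and 8 were small. Raw WT counts of mthfd2 rose there, from 93 to 97 and from 59 to 75, so the lower CPM came from the scaling. fthl29, a ferritin-like gene, had an interaction of -9.31 (unadjusted p = 0.00542 in edgeR), which rests on 2 libraries. These had 17.7 CPM (miR-21OE-NCD of batch 8) and 45.4 CPM (WT-HCD of batch 7), while the other 10 lay between 0 and 2.23 CPM. In miR-21OE livers the fthl29 counts were 11 on both diets in batch 7 and 2 on both diets in batch 9. The direction in those pairs thus came from the scaling alone.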

How the results depend on the processing

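The number of genes changed by the diet in miR-21OE livers (2 with the replicate block) was 0 without the block, 11 when the 6 libraries were fitted alone, 47 with DESeq2 and 25 with DESeq2 without the block, 10 without a filter on counts, and 12, 0 and 1 without batch 7, 8 or 9. It was 1 to 4 when single libraries were left out. In WT livers of the same batches the number (13) was 0 without the block, 54 with 6 libraries alone, 186 with DESeq2, 78 with DESeq2 without the block, 71 without a filter, 33, 1 and 1 without batch 7, 8 or 9, and 4 to 27 when single libraries were left out. Genes with an interaction (0) numbered 7 with DESeq2 and the block and 0 with the others. In WT livers of batches 1 to 6 the number (793) was 34 without the block, 2609 with DESeq2, 1777 with library totals, and 443, 147, 210, 260, 299 and 164 without batches 1 to 6 in turn. The cause of these differences was not tested.

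RLE factors, library totals and a filter of 10 counts in 3 libraries kept both genes called in miR-21OE livers. Library totals moved the median of all genes to 0.11. The sign of L2FC turned for irg1l (0.21) without batch 9, for tmem176l.2 (-0.21) without batch 9 (2.85), with library totals (0.017), with 6 libraries alone (0.25) and among the fits without single libraries (-2.30 to 2.40, the latter without miR-21OE-NCD of batch 9), and for fthl29 among the fits without single libraries (-7.25 to 1.4). With 3 batches and 6 residual degrees of freedom, a padj above 0.05 does not show that a gene was unaffected. Transcripts of a few counts, such as ASS1 and irg1l on HCD, were measured with little precision.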

Other observations

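Endothelial markers were higher on HCD in 3 of 3 batches of miR-21OE livers in 6 of 6 genes tested (12.6% of all genes were), at small L2FCs with a median of 0.39, and their sum was 85.2 to 97.7 CPM on NCD and 107 to 114 CPM on HCD. In WT livers 4 of the 6 were higher in 3 of 3 batches (13.8% of all genes were), with a median of 0.40. Fatty acid oxidation genes were lower in 3 of 3 batches in 6 of 14 members and higher in 1 (13.6% and 12.6% of all genes were). Their median L2FC was -0.39 (-0.52 in WT livers). In purine and one-carbon metabolism, atic and paics, enzymes of purine synthesis, had L2FCs of -1.06 (SE 0.24) and -0.67 (SE 0.21) in miR-21OE livers and -1.82 and -1.38 in WT livers, with unadjusted interaction p-values of 0.0441 and 0.0325 in edgeR. The list as a whole (13 tested) had a median of -0.09.

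Genes of glucose metabolism (11 tested) had a median of -0.11, with 2 lower and 0 higher in 3 of 3 batches (13.6% and 12.6% of all genes were). Among them pklr, the liver pyruvate kinase, was at 6713, 7647 and 6907 CPM on NCD and 5565, 3535 and 5143 CPM on HCD (L2FC -0.58, SE 0.27), without overlap. Among 15 apolipoprotein genes (median 0.10) apoa4a, an apolipoprotein of triglyceride-rich particles, was at 0.132, 0.462 and 0.996 CPM and 0.331, 62.9 and 2.28 CPM, with the HCD library of batch 8 far above the others. Acute phase and complement genes had 2 of 12 members higher and 1 lower in 3 of 3 batches, beside 12.6% and 13.6% of all genes (median 0.15). Arginine and urea genes had a median of 0.08, or -0.09 without batch 9. Medians of the remaining marker lists were 0.17 (biliary), -0.22 (stellate), 0.22 (macrophage), -0.55 (erythroid), -0.72 (skeletal muscle), -0.07 (hepatocyte) and -6.40 (endocrine pancreas, -0.32 without batch 9). Those of the intestine and lens lists were -1.5 (0.12 without batch 9) and -5.70 (-0.42 without batch 8). The lens value lies near the floor: its 5 members summed to 1.76 to 10.0 CPM on NCD and 0.883 to 2.68 CPM on HCD. In each miR-21OE-HCD library 3 of the 5 lens members had 0 counts. In skeletal muscle, cox6a2, a muscle subunit of cytochrome c oxidase, had an L2FC of 2.08 (SE 0.59) and pvalb1, a parvalbumin, one of -1.07 (SE 0.45).

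ins, the insulin gene, was at 0.0881, 0.213 and 47.1 CPM on NCD and 0, 0 and 0.116 CPM on HCD in miR-21OE livers, and DESeq2 called it lower. The library with the highest value was the one with the highest pancreas markers, and without batch 9 too few ins counts were left to be fitted. AOC1, a diamine oxidase, was at 0.661, 0.710 and 14.8 CPM and 0.184, 0.427 and 0.0386 CPM, with the same library as the highest. Its L2FC was -4.30, or -1.65 without batch 9, and its interaction was -5.60 (unadjusted p = 0.01 in edgeR), or -3.49 without batch 9.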
